A study of Mus musculus with 16 samples.

Results

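Small nucleolar RNA (snoRNA) and small Cajal body RNA (scaRNA) genes were followed through 8 lists of RNA peaks from mouse sperm. A gene was a member when a list named it as the gene nearest to a peak and its symbol began with Snord, Snora or Scarna. This rule found 82 of the 20176 genes named in any list: 50 box C/D genes (Snord), 26 box H/ACA genes (Snora) and 6 Cajal body genes (Scarna). They were named for 408 peaks, 267 in free RNA and 141 in DNA-bound RNA.

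The sperm came from 4 Dnmt2-/- males on a C57BL/6 background, all without the RNA cytosine methyltransferase Dnmt2 and sampled at 6 to 8 months of age. Males 3 and 4 had a high-fat diet with 21% butter (HFD) from 4 weeks of age, and males 1 and 2 had a normal diet (ND). Each male gave 2 libraries, the free fraction (F) from the aqueous phase and the DNA-bound fraction (D), which DNase released from the purified DNA. Peaks were called in each library on its own, wherever reads were denser than in the region around, and RNA that stayed under that threshold does not appear. No list of the 8 wild-type libraries was used, so nothing below compares the genotype.

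Box C/D snoRNAs guide ribose methylation and box H/ACA snoRNAs guide the change of uridine to pseudouridine, mostly in ribosomal RNA in the nucleolus. ScaRNAs use the same boxes and guide the same changes in spliceosomal snRNAs, in the Cajal bodies of the nucleus. In mammals most of these genes lie in introns of longer genes, many of which encode ribosomal proteins or translation factors, and the small RNA is trimmed out of the spliced intron. Of the 82 members, 81 had a gene model in GENCODE M21, with a length between 64 and 414 bases, and 77 of these lay inside a longer gene on the same strand, in 69 host genes.

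The sequences below are those of the members on which the results turn, read from the GENCODE M21 transcripts (GRCm38, the build mm10 of the peak positions). Snord17 had a peak on its body in all 4 F lists, Snora81 and Scarna6 in 2 of them, Snord33 and Snord68 were covered end to end in F of male 3, and Snord83b was the only member with such a peak in a D list. Snord14c and Snord14d were named for the most peaks. Capitals mark the C box (TGATGA) and the D box (CTGA), which guide RNAs of the box C/D kind carry, searched on the RNA strand in the first 40 and the last 30 bases. Of 49 box C/D members with a model, 32 (65.3%) held the first motif and 49 (100%) the second in these windows. Of the 6 Cajal body members, 3 (50%) held TGATGA and 5 (83.3%) held CTGA in the same windows, both of them in Scarna6. The ACA near the 3′ end was searched in the last 8 bases and was found in 24 of 26 box H/ACA members (92.3%) and in 2 of 6 Cajal body members (33.3%). Snora81 was without ACA in this window and is printed with no capitals.
Snord17, chr2:144265979-144266216, minus strand, 238 bases, host Snx5: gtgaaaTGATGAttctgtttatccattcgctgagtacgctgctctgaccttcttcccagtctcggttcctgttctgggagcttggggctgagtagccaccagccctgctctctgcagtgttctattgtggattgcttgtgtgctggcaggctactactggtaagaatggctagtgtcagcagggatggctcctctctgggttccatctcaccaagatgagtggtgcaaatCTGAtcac
Snord33, chr7:45126864-45126947, minus strand, 84 bases, host Rpl13a: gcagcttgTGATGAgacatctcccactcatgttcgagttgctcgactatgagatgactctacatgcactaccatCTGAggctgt
Snord68, chr8:123103038-123103123, plus strand, 86 bases, host Rpl13: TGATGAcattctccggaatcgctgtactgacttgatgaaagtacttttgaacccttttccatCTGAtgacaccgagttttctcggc
Snord83b, chr15:80078498-80078591, minus strand, 94 bases, host Rpl3: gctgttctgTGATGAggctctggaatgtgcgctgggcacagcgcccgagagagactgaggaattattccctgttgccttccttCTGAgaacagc
Snora81, chr16:23110756-23110933, plus strand, 178 bases, host Eif4a2: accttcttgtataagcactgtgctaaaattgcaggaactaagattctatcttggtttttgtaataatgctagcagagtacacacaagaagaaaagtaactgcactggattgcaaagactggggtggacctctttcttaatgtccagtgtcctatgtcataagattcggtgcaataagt
Scarna6, chr1:87784556-87784820, plus strand, 265 bases, host Atg16l1: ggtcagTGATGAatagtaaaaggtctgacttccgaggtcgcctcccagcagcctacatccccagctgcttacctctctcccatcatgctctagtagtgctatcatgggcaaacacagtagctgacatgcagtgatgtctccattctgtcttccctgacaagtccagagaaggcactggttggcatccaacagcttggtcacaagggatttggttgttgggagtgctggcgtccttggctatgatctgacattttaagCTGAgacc

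Snord14c and Snord14d are copies of U14, a box C/D RNA that is needed for the processing of small-subunit rRNA in yeast. Both annotated genes lie in introns of Hspa8, which encodes a constitutive heat shock protein, and 84 of their 86 bases are the same.
Snord14c, chr9:40803583-40803668, plus strand, 86 bases, host Hspa8: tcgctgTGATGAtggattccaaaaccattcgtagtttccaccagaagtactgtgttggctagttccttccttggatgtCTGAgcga
Snord14d, chr9:40803995-40804080, plus strand, 86 bases, host Hspa8: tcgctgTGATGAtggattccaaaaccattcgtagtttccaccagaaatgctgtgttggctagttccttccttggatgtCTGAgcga

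The lists held between 3427 and 49918 peaks, and 2 of them stood apart. In F of males 3 and 1, 5.1% and 10.6% of all peaks lay within 500 bases of the start of their nearest gene, against 0.567% to 1.11% in the other 6 lists. The same 2 lists carried peaks of epididymal epithelium, the tissue through which sperm pass and from which they were released, although the study's methods name a wash and a centrifugation to remove somatic cells: 21 and 30 of 31 marker genes named in any list had a peak in an exon, UTR, promoter-TSS (transcription start site), TTS or non-coding position, against 0 to 2 in the other 6, with Pate4 at 0 in all 8. Gpx5, an epididymal glutathione peroxidase, led them with scores of 1933.4 in F of male 3 and 4950.0 in F of male 1. The summed score of these markers was 8940.0 and 64537.0 in the 2 lists and 0 to 93.3 in the others. Scores are scaled within a library, so the sizes of these sums are not compared between lists. Over all genes named, 6.95% and 37.6% had such a peak in F of males 3 and 1, and 0.664% to 5.53% in the other 6 lists. Of 8 leukocyte markers 1 and 4 had such a peak in F of males 3 and 1, and 0 to 2 elsewhere, not tested against that share. Cd52 was the 1 in F of male 3 (648.7) and the highest in F of male 1 (1094.5). It is also made by epididymal epithelium, so it does not mark leukocytes alone. Of 14 sperm and spermatid markers, 11 had such a peak in F of male 1 and 0 in the other 7 lists, so the labelled cell type shows by these markers in 1 list only, with Akap4, Catsper1 and Gapdhs at 0 there too. The part of other cells in the results below was not tested, and in bulk RNA fewer cells of a type and less RNA per cell cannot be told apart.

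The share of peaks named for snoRNA and scaRNA genes was small in every list. It was 0.483%, 0.176%, 0.701% and 0.0917% in F of males 3, 4, 1 and 2, against 0.128%, 0.184%, 0.146% and 0.136% in D of the same males. F was above D in males 3 and 1 and below it in males 4 and 2. The mean difference of F minus D was 0.214 ± 0.29 percentage points (SD, n = 4) with p = 0.5 by the two-sided exact sign-flip permutation test over the 16 sign patterns of 4 males, whose smallest p is 0.125 (adjusted p = 1.0 over 8 tests). Without male 1 the difference was 0.101 percentage points. In males 2 and 4 alone, without the 2 F lists that stand apart, it was -0.0262 percentage points, the opposite direction. These 2 males were chosen after seeing the data.

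A peak was taken as close to one of these short genes when its centre lay within 500 bases of the start in either direction. Such a peak need not touch the gene. Of the 66 close peaks, 25 lay on the body of the named gene, and 37 missed it but lay on an exon of the host. Of the 408 peaks, 66 were close, and 65 of these were in F. They made 18, 1, 45 and 1 peaks in F of males 3, 4, 1 and 2, against 0, 1, 0 and 0 in D of the same males. As a share of the list this was 0.177%, 0.00535%, 0.177% and 0.0131% in F, against 0%, 0.00472%, 0% and 0% in D. F was higher than D in all 4 males, though in male 4 each list held a single close peak. The mean difference was 0.0921 ± 0.0985 percentage points (SD, n = 4), with p = 0.125, the smallest that the exact sign-flip permutation test allows here (adjusted p = 0.5 over 8 tests). It was 0.0443 percentage points at 200 bases and 0.0384 when a peak had to overlap the gene body. In males 2 and 4 alone the difference was 0.00686 percentage points. The 2 F lists left out there stand apart by their close peaks over all genes. A smaller difference therefore follows in part from that choice, here and in the gene counts and distances below.

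Of the 82 members, 41 had a close peak in any list and 41 had none. The genes with a close peak numbered 17 in F of male 3, 1 in F of male 4, 39 in F of male 1 and 1 in F of male 2, against 0, 1, 0 and 0 in D of males 3, 4, 1 and 2. Over all 20176 genes named, 2.54%, 0.52%, 12.9% and 0.268% had a close peak in F of males 3, 4, 1 and 2, and 0.852%, 0.714%, 0.188% and 1.7% in D of the same males. The 17 and 39 members in F of males 3 and 1 are thus set against lists in which close peaks were more frequent over all genes, and no test of the members against other genes was run. F minus D averaged 14.2 ± 18.2 genes (SD, n = 4), higher in 3 of 4 males and equal in male 4, with p = 0.25 by the exact sign-flip permutation test (adjusted p = 0.667 over 8 tests). In males 2 and 4 alone the mean difference was 0.5 genes, and without male 1 it was 6.0 genes.

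**Figure D1:**
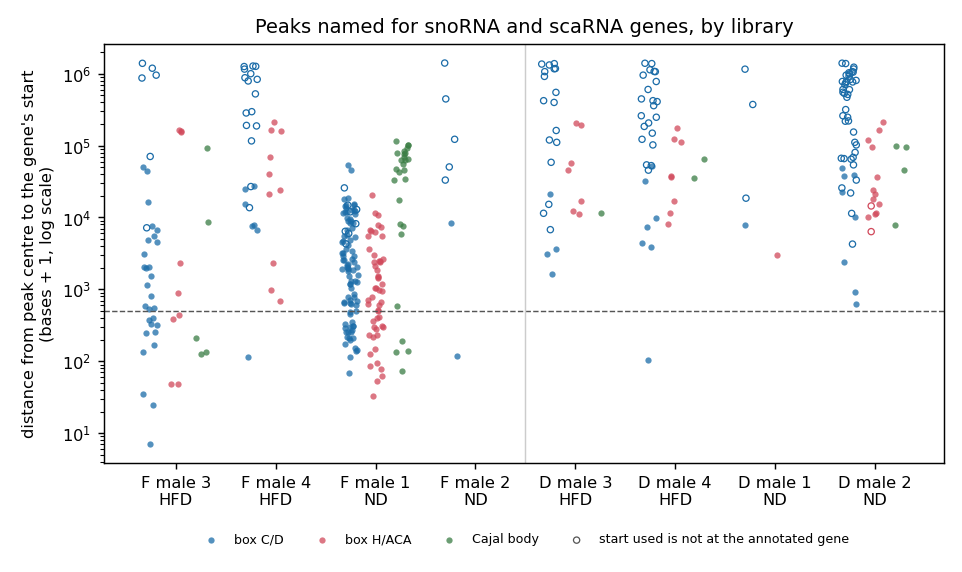
Distance in bases (plus 1, log scale) between the centre of each of the 408 peaks and the start of the snoRNA or scaRNA gene it was named for, by library and class, with HFD males left of ND males in each fraction. Filled points have their start at the annotated gene, open points at another place, and the dashed line marks 500 bases. Below it lie 63 peaks in F of males 3 and 1 and 3 peaks in the other 6 lists together.

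The distance of all the members' peaks to the start was low in the 2 F lists that stand apart. Its median was 1530 bases in F of male 3, 116244 in F of male 4, 2219.5 in F of male 1 and 50470 in F of male 2. It was 111066, 122031, 18564 and 101172 bases in D of males 3, 4, 1 and 2. On the log10 scale F minus D averaged -0.776 ± 0.815 (SD, n = 4), with F nearer in all 4 males and p = 0.125 by the exact sign-flip permutation test, the smallest possible (adjusted p = 0.5 over 8 tests). The mean difference was -0.415 without male 3 and -0.162 in males 2 and 4 alone, and in male 4 it was -0.0211. With peaks under 2 times the lowest score of the list left out (-0.77), or with only the nearest peak of each gene (-0.648), 1 of 4 males went the other way. Over all genes the median distance was 33965, 69984, 12501 and 66883 bases in F of males 3, 4, 1 and 2, against 62299, 64280, 64265.5 and 66290.5 in D, so it too was lowest in F of males 1 and 3.

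The annotation of the same peaks shows where they lie. In F of males 3 and 1 together, 22 of 227 peaks lay on the body of the gene they were named for, 171 on an exon of another gene, 24 in an intron and 10 outside genes. In F of males 4 and 2 together the counts were 2, 4, 10 and 24 of 40 peaks, and in the 4 D lists 1, 3, 46 and 91 of 141 peaks. By the classes of the lists themselves, 76 of the 267 F peaks were exonic, 52 at a TTS (transcription termination site), 44 at a promoter-TSS, 40 intergenic and 38 intronic. Of the 141 D peaks, 107 were intergenic and 30 intronic. Repeats were annotated under 18.4%, 57.6%, 4.49% and 57.1% of the members' peaks in F of males 3, 4, 1 and 2, beside 53.2%, 54.5%, 13.0% and 55.4% of all peaks of those lists. In D of the same males they were under 55.2%, 56.4%, 60% and 60.3% of the members' peaks, beside 65.1%, 63.6%, 57.3% and 60.4% of all peaks.

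The 2 members with the most peaks, Snord14c with 85 and Snord14d with 19, did not have a single one near their annotated genes. All 104 peaks lay on chromosome 10, between 4266 and 1407221 bases from a start near position 46244750 that the lists use for both names, whereas the annotated genes lie in Hspa8 on chromosome 9. They made up 5, 14, 1 and 4 of the members' peaks in F of males 3, 4, 1 and 2, against 15, 22, 2 and 41 in D of the same males. Their share of the members' peaks was therefore 10.2%, 42.4%, 0.562% and 57.1% in the 4 F lists, against 51.7%, 56.4%, 40% and 60.3% in the 4 D lists. The share was low in the 2 F lists that stand apart and at or above 40% in the other 6.

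In all, 121 peaks of 7 members were measured from a start that is not at the annotated gene. Beside the Snord14 copies these were 9 peaks of Snord58b, 4 of Snord118, 2 of Snora19 and 1 each of Snord116l1 and Snord116l2. Snord118 encodes U8, which is needed for large-subunit rRNA processing, and its 4 peaks lay on chromosome 19 while the annotated gene is on chromosome 11. With these peaks left out, an alternative added after seeing the data, the median distance was 821, 21307, 2007.5 and 4234.5 bases in F of males 3, 4, 1 and 2, against 14646, 31835, 5492.5 and 23389 in D. These medians rest on 43, 17, 170 and 2 peaks in F of males 3, 4, 1 and 2, and on 12, 17, 2 and 24 in D. F was then still nearer in all 4 males, with a mean difference of -0.795 on the log10 scale (p = 0.125, exact sign-flip permutation test, n = 4). In males 1 and 2, however, 1 side of the comparison was a median of only 2 peaks.

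Snord17 was the member with a close peak in the most lists, 4 of 8. Its RNA is a long box C/D snoRNA that in human guides methylation of large-subunit rRNA, and its gene lies in an intron of Snx5, which encodes a sorting nexin. The peak on its body had a score of 415.5 and rank 85 of 10143 in F of male 3, and 87.1 and rank 161 of 18709 in F of male 4. The score was 3692.3 at rank 31 of 25406 in F of male 1 and 155.1 at rank 113 of 7635 in F of male 2. In each F list the peak was thus among the highest 1.48% or less. In F of males 4 and 2, where 2 and 0 of the epididymal markers were counted above, it was the only close peak of any member. Scores are scaled within a library, so their sizes are not compared between lists.

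No D list named Snord17 for a peak at any distance. Of all 20176 genes named, 3 had a close peak in every F list, and Snord17 was the only one of them with no close peak in any D list (1 gene, 0.00496%). This gene was singled out after its values were seen, so the pattern is given as a description with no test. A D list shows a peak only from its own threshold on, which was the value of 14 score steps in D of male 2 and of 6 in the other 3, so no peak does not mean no RNA.

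The peak lay wholly inside Snord17 in F of males 4, 1 and 2, and in F of male 3 89.8% of it lay on the gene. The 4 peaks ran from base 36 to base 261 counted from the 5′ end of the 238-base gene in F of male 3, from 39 to 217 in male 4, from 43 to 212 in male 1 and from 41 to 221 in male 2. They covered 85.3%, 75.2%, 71.4% and 76.1% of the gene in males 3, 4, 1 and 2, and none touched an exon of another gene. The TGATGA at base 7 and, in 3 of the 4 lists, the CTGA at base 231 of the sequence printed above lay outside the called stretch. The lists named Snord17 for 10 further peaks, which lay farther off in Snx5. In F of male 1 there were 8, all on exons of Snx5 with scores of 27.0 to 77.9, so the peak on the snoRNA was 47.4 times as high as the highest of them. There was 1 further peak each in F of males 3 and 2, where the snoRNA peak was 6.53 and 2.32 times as high.

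**Figure D2:**
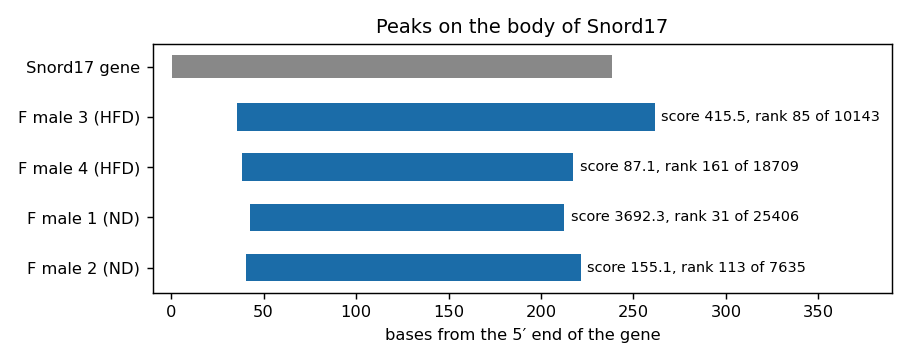
Extent of the peak on the body of Snord17 in each F list, in bases from the 5′ end of the gene (grey bar, 238 bases), with HFD males above ND males. The 4 peaks start between bases 36 and 43 and end between bases 212 and 261, and no D list held a peak there.

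Apart from Snord83b, each member with a close peak in 2 or more lists had one in F of males 3 and 1, and Snord17 had one in F of males 4 and 2 as well. Such recurrent members numbered 16, and 15 of them were shared by these 2 lists. The remaining 25 members with a close peak had it in 1 list. Most close peaks touched an exon of the host gene. Of the 66 close peaks, 25 lay on the body of the named gene, 13 of which also touched an exon of another gene. Of the 41 that missed the body, 37 lay on an exon of the host. In F of male 1 the hosts of 62 members had a peak on an exon, and 33 of these members had a close peak, as did 4 of the 15 members whose host had no exon peak. The counts were 13 of 27 members with such a host and 2 of 50 without in F of male 3. A close peak on a host exon is itself a peak on that host. The 2 sides of this split therefore share peaks, and the counts do not test a link between them.

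**Figure D3:**
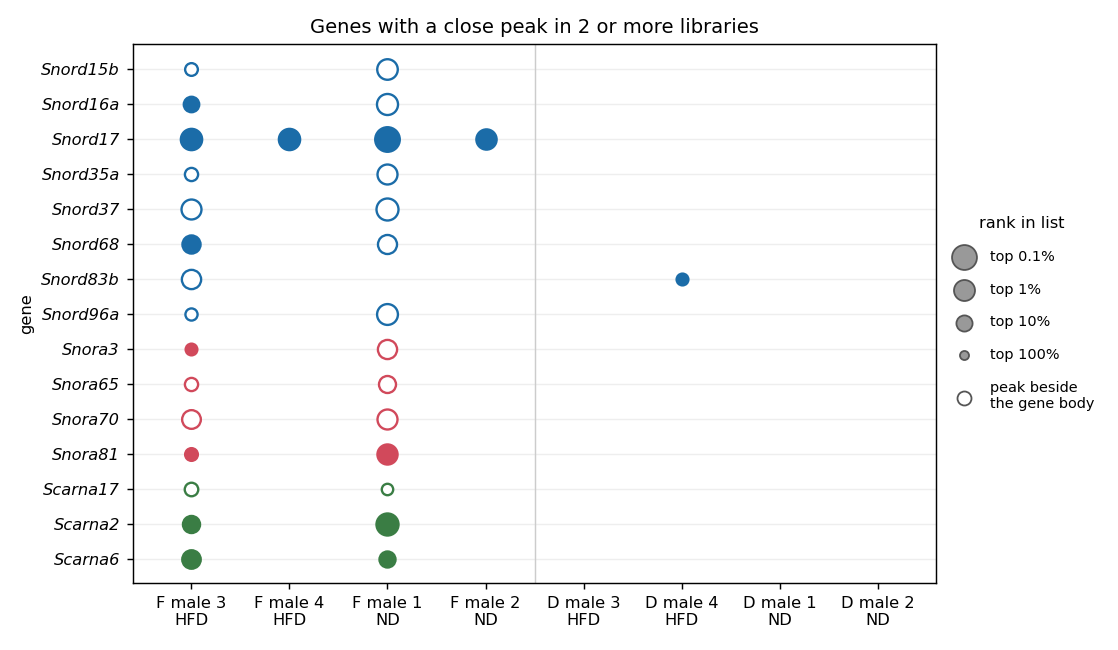
The members with a close peak in 2 or more lists, 15 of 16 shown, by library (HFD males left of ND males in each fraction) and class (blue box C/D, red box H/ACA, green Cajal body). Larger circles rank higher in their list by score, filled circles mark peaks on the gene body and white circles peaks beside it. Snord17 has a filled circle in all 4 F lists, and Snord83b has the only circle in a D list.

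Among box C/D genes, Snord37, which in human guides large-subunit rRNA methylation, ranked high without a peak on its body. Its close peaks had scores of 224.7 in F of male 3 and 591.4 in F of male 1, at 256 and 211 bases from the start, and both lay on an exon of its host Eef2, translation elongation factor 2. The same held for Snord15b in the ribosomal protein gene Rps3, with highest close scores of 61.5 in F of male 3 and 280.0 in F of male 1. Snord35a in Rpl13a (65.7 and 220.1) and Snord96a in Rack1 (55.1 and 315.9) also had close peaks on host exons only in these 2 lists. Snord15b and Snord35a guide large-subunit rRNA methylation in human. No close peak of these 4 genes touched the snoRNA itself.

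In 3 further box C/D genes the peak of male 3 touched the snoRNA itself and that of male 1, where there was one under the gene's name, did not. Snord33, in Rpl13a and a guide for small-subunit rRNA in human, had a score of 186.6 in F of male 3, with 100% of the gene covered, and no close peak under its name in F of male 1. There a peak of score 158.7 overlapped Snord33 but was named for Mir5121, the gene with the nearer start. Snord68, in Rpl13, had 127.2 in F of male 3 with full cover and 157.2 in F of male 1 beside the body. Snord16a, in Rpl4, had 86.9 in F of male 3 with 37.4% of the gene covered, and 347.4 in F of male 1 beside it. All close peaks under the names of these 3 genes touched host exons as well, and the called stretch was 226 bases wide in F of male 3 and 170 bases in F of male 1.

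Snord83b, a box C/D gene in the ribosomal protein gene Rpl3, was the only member with a close peak in a D list. Its close peak in F of male 3 had a score of 180.2 at 376 bases from the start and lay beside the gene on an exon of Rpl3. The peak in D of male 4 had a score of 68.0 at rank 10123 of 21171, started at base 20 of the 94-base gene and covered 79.8% of it. Only 39.5% of that peak lay on the snoRNA, and the rest reached an exon of Rpl3. The next nearest peaks of members in D lists were 635 bases from Snord71 and 915 bases from Snord111, both in male 2.

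Among box H/ACA genes, Snora81 had a peak on its body in both lists that stand apart. It lies in Eif4a2, which encodes a translation initiation factor, and guides large-subunit rRNA pseudouridylation in human. Its score was 61.5 in F of male 3, with 98.9% of the gene covered, and 233.6 in F of male 1, with 85.4% covered and no exon of another gene touched. Snora3 in Rpl27a had 50.9 on its body in F of male 3, and 163.2 beside it on a host exon in F of male 1. Snora70 in Rpl10 (144.2 in F of male 3, 221.6 in F of male 1) and Snora65 in Rpl12 (65.7 and 89.8) had close peaks beside the body only.

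Of the other box H/ACA genes, 11 had a close peak in F of male 1 alone. Snora33 had the most peaks of its class, 20 in 5 lists, all of them at least 21307 bases from its start and none in F of males 1 and 2. Its annotated gene lies in Rps12, and no peak of it touched an exon. Snora31, in the translationally controlled tumor protein gene Tpt1, followed with 8 peaks. It had 4 in F of male 1, 1 of them close with a score of 211.1 on a Tpt1 exon, and 2 each in D of males 4 and 2, all 11482 bases or more away.

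Of the 6 scaRNA genes named in any list, 4 had a close peak in F of male 1, and 3 of these in F of male 3 as well. Over all genes named, 12.9% and 2.54% had a close peak in these 2 lists. F of male 1 named 5 of the 6, and the annotation holds 9 scaRNA models, so the denominator depends on that list. Scarna2, which in human guides methylation of U2 snRNA and has no host in the annotation, had a peak inside its body with a score of 108.1 in F of male 3 and 607.9 in F of male 1, at rank 142 of 25406. These peaks covered 54.6% and 41.1% of its 414 bases. Scarna6, in the autophagy gene Atg16l1, had 135.7 in F of male 3 and 71.9 in F of male 1, with 85.3% and 64.2% of the gene covered and no exon touched. In both lists the peaks of Scarna2 and Scarna6 lay wholly inside the small RNA.

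Scarna10, in Ncapd2 and in human a guide for U5 snRNA, had a peak on its body in F of male 1 alone, with a score of 381.8 at rank 222 of 25406. Scarna17 had close peaks beside its body, 67.8 in F of male 3 and 29.9 in F of male 1, in no annotated gene. It was also the member of its class with the most peaks, 28 in 4 lists. Of these, 21 were in F of male 1, and 17 of the 21 lay on exons of the neighbouring motor protein gene Myo5b, up to 115744 bases away. Scarna6 followed with 4 peaks. The names in the lists thus joined peaks on Myo5b mRNA to a scaRNA gene.

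The classes were compared within each library as the share of their members with a close peak. A gene is a member only once a list names it, and F of male 1 named 69 of the 82, 23 of them in no other list, so the list with the highest shares also filled most of the denominators. Of the 50 box C/D genes 20%, 2.0%, 40% and 2.0% had one in F of males 3, 4, 1 and 2. Of the 26 box H/ACA genes 15.4%, 0%, 57.7% and 0% had one in the same lists, and of the 6 Cajal body genes 50%, 0%, 66.7% and 0%. Box C/D minus box H/ACA averaged -2.27 ± 10.4 percentage points in F (SD, n = 4), with p = 1.0 by the exact sign-flip permutation test (adjusted p = 1.0 over 8 tests). The difference was 4.62, 2.0, -17.7 and 2.0 points in males 3, 4, 1 and 2, so its direction rests on male 1, and without male 1 it was 2.87. With all annotated genes of each class as the denominator it was -3.71. In D it averaged 0.5 ± 1.0 points (SD, n = 4) from the single gene Snord83b, with p = 1.0 by the same exact test.

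**Figure D4:**
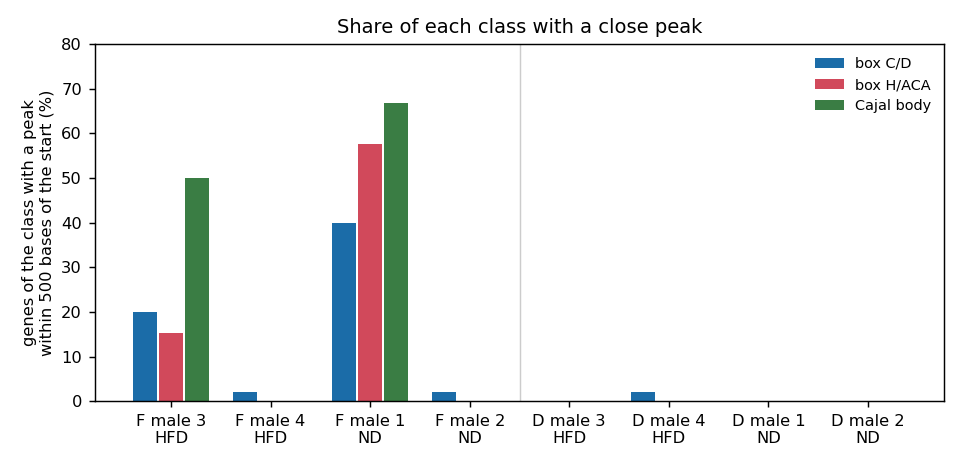
Percent of the 50 box C/D, 26 box H/ACA and 6 Cajal body genes with a peak within 500 bases of the start, by library, with HFD males left of ND males in each fraction. In F of male 1 the bars reach 40%, 57.7% and 66.7% and in F of male 3 they reach 20%, 15.4% and 50%, while the other 6 lists have at most 2.0% in any class.

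Peaks on the gene body were counted as well. They were found for 8 box C/D, 8 box H/ACA and 3 Cajal body genes, 19 in all. These were 5 box C/D, 2 box H/ACA and 2 Cajal body genes in F of male 3, and 3, 7 and 3 in F of male 1. Over the 25 peaks on a body, the part of the gene covered was between 21.6% and 100%, with a median of 76.1%. By class and list the median distance to the annotated starts was 821 bases for box C/D and 877 for box H/ACA in F of male 3, and 1999 and 965 in F of male 1. For Cajal body genes it was 210 bases in F of male 3 and 46671 in F of male 1, where the peaks on Myo5b exons dominate.

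The nearest start does not always name the gene under a peak. GENCODE M21 holds 150 models whose symbols follow the rule, with 147 symbols. Asked by position alone, peaks overlapped 11 of these symbols in F of male 3, 1 in F of male 4, 18 in F of male 1 and 1 in F of male 2, against 0, 1, 0 and 0 in D of males 3, 4, 1 and 2. Beside Snord33, 4 genes that no list names were found this way, and they are given because they were seen there. Snora73a, which lies in the non-coding host Snhg3, was overlapped by a peak of score 72.1 in F of male 3 and 368.3 in F of male 1. Its neighbour Snora73b had 150.5 and 257.5, and all 4 of these peaks were named for Snhg3 and classed as intronic. Scarna13 (65.9) and Snora57 (35.9) were overlapped in F of male 1 alone.

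HFD and ND were set side by side within each fraction. In F the share of peaks close to a member was 0.177% and 0.00535% in HFD males 3 and 4, against 0.177% and 0.0131% in ND males 1 and 2. One high and one low male stood in each diet, and the means differed by -0.00371 percentage points (HFD minus ND, p = 1.0 by the exact permutation test over 6 splits, whose smallest p is 0.333). In D the difference was 0.00236 percentage points (p = 1.0, the same exact test), and it rests on 1 peak of male 4. With 2 males per diet no difference could pass a threshold of 0.05.

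Genes that build and carry these RNAs were looked up in the same lists, counting those with a peak in an exon, UTR, promoter-TSS, TTS or non-coding position. The counts go by the name a list gives, so a peak named for a snoRNA inside the gene is missed. In F of male 1 this held for peaks that touched exons of Nop58, Snhg1 and Snhg12. Over all genes named the share with such a peak was 6.95%, 2.04%, 37.6% and 0.932% in F of males 3, 4, 1 and 2, and 2.97%, 2.67%, 0.664% and 5.53% in D of the same males. Of 3 box C/D core protein genes named in any list, 2 had such a peak in F of male 1, and 1 in D of male 2. These were Fbl, the methyltransferase fibrillarin, with 50.9 in F of male 1 and 16.1 in D of male 2, and Nhp2l1 with 31.4 in F of male 1.

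Of 3 box H/ACA core protein genes all 3 had a peak in F of male 1 and none in another list. They were Nop10 (61.4), Dkc1, the pseudouridine synthase dyskerin (25.5), and Nhp2 (21.0). Of 8 snoRNP assembly factors 3 had a peak in F of male 1 and 0 elsewhere. Of 8 genes listed for Cajal body proteins 4 had one in F of male 1 and 0 elsewhere, with Coil, the gene of the defining protein coilin, at 0 in all 8. The 4 were Gemin4, the highest with 423.7, Ddx20 (25.5), Usp1 (25.5) and Zpr1 (24.0). Usp1 encodes a deubiquitinase that is not a Cajal body protein, so both counts of this list include a gene that does not belong there. Of 3 spliceosomal snRNA genes named in any list, F of males 3, 4, 1 and 2 held such peaks for 1, 2, 2 and 0, and no D list held one. Rnu73b, which was listed with them, stands for U73, a box C/D snoRNA, and was left out of this count. Rnu12 (U12 snRNA) was present in 3 F lists with 248.0, 28.0 and 56.9 in males 3, 4 and 1. Of 11 non-coding snoRNA host genes 1, 0, 3 and 0 had a peak in F of males 3, 4, 1 and 2, against 0, 1, 0 and 0 in D. Snhg20 was the one in F of male 3 (91.2) and Snhg8 the one in D of male 4 (172.5).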

How the data were processed

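Sperm RNA of 4 Dnmt2-/- males was sequenced in 2 fractions each. The authors trimmed reads with Trimmomatic 0.36, removing 10 bases at the 5′ end and reads under 30 bases, used Hisat2 for the alignment to GRCm38, and found peaks per library with HOMER 4.9 against a local region of 10000 bases. The submitters' processing notes also name FastQC, cutadapt and Salmon. The deposited score of a peak has no stated unit. In each list 100% of scores under 100 were whole multiples of 1 step within 0.2 steps, so scores were read only within a list. The other deposited value used, the distance to the start, is in bases from the peak centre to the nearest start in HOMER's own annotation. The strand column holds 1 value throughout, so sense and antisense cannot be told apart. Reads outside peaks are not in the lists, so the lists do not give the depth of a library. The number of peaks is not a measure of it. The paper's supplement summarizes mapped reads, which were not used here. Columns of unmatched samples numbered 0.

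Values were computed in Python 3.11.15 with scipy 1.17.1, numpy 2.4.6 and pandas 2.3.3 and plotted in matplotlib 3.10.9. A peak was on a gene body, or on an exon, when at least 1 base overlapped the model in GENCODE M21. Exons came from the basic annotation without retained introns. A start counted as lying at the annotated gene within 100 bases of it. Distances entered the log10 scale plus 1 base. F and D were compared within males, since both fractions were prepared from each male, by exact sign-flip permutation tests, and diets over the 6 splits of 4 males. P-values were adjusted by Benjamini-Hochberg over 8 tests. Measures and tests were checked on simulated data with known answers.

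The members, lists and tests were chosen with earlier results of these data known. Genes were named by a rule: members with a close peak in 2 or more libraries, the 3 with the highest close score per library, each scaRNA gene with a close peak, and the 2 per class with the most peaks. Other members, which were Snord58b, Snord118, Snora19, Snord116l1, Snord116l2, Snord71 and Snord111, and the genes found by position were named after their values were seen. The values of 1 member that the rule names are not reported here, though it is in the counts. Alternatives were 200 and 1000 bases for closeness, peaks of at least 2 times the lowest score, weights by score, other denominators, body overlap, unpaired tests and leaving out each male.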

Additional observations from a re-analysis of the deposited data

Results flagged for a closer look

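In a group of 4 libraries a value was singled out when its gap to the nearest other value as a share of the whole range passed Dixon's critical value, which chance gives for about 1 group in 20. In D the share of close peaks in male 4 (0.00472%), its number of genes with a close peak (1) and its box C/D minus box H/ACA difference (2.0 percentage points) stood apart from 0 in the other 3 males, and all 3 values come from the 1 peak on Snord83b. Leaving that male out takes each of them to 0. With 0 in the other 3 males any value above 0 passes this rule, so the 1 in 20 does not hold for these 3 values. In D the median log10 distance of male 1 (4.27, from 5 peaks) was below the 5.01 to 5.09 of the other 3. In F the box C/D minus box H/ACA difference of male 1 (-17.7 percentage points) stood below the 2.0 to 4.62 of the other 3, in the list with the most peaks of members (178) and 30 of 31 epididymal markers. The part of these in the difference was not tested.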

How the results depend on the processing

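Of 78 alternative values for the 8 results, 70 had the same direction, 6 the opposite one and 2 were 0. Most of these tests cannot pass 0.05 (the smallest p is 0.125 with 4 males, 0.25 with 3 and 0.333 for the diets), so their p-values say nothing about stability. The libraries are paired by the male, and with no replicate block (70 splits) the share of close peaks, F minus D, stayed 0.0921 with p = 0.0286 by the exact permutation test, the smallest possible, while over its other alternatives p was 0.125 to 0.5. By position, whatever gene was named, that share differed by 0.0483. The same unpaired exact permutation test gave p = 0.314 for the share of peaks named (0.214), 0.0857 for the gene count (14.2) and 0.229 for the log10 distance (-0.776). The gene count, F minus D, was 7.25 at 200 bases, 5.75 by overlap with the body, 7.5 by position whatever gene was named, 8.37 per 10000 peaks and 0.5 in males 2 and 4. Without 1 male it ranged from 6.0 (without male 1) to 19.0. In males 2 and 4, chosen after seeing the data, the share of peaks named was -0.0262 and box C/D minus box H/ACA in F was 2.0, both reversed. Leaving out 1 male gave -4.56 to 2.87 for that class difference in F, reversed without male 1, and 0 to 0.667 for it in D. HFD minus ND in F was 0.0031 at 200 bases and -0.0898 to 0.0824 without 1 male, positive without male 1 or 4, and in D it was 0 to 0.00472. The cause was not tested. Lists of called peaks show only what passed the threshold, weak small RNAs are not seen, and reads under 30 bases were removed before.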
